A study of Mus musculus with 6 samples.

Results

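The genes described here encode the parts of the primary cilium: the intraflagellar transport (IFT) trains, their motors, the BBSome, the membrane trafficking factors, and the transition zone and EvC zone proteins at the ciliary base. The list names 44 genes chosen because mammalian cells need their products to build a cilium or to receive Hedgehog signals in it. On the array, 41 of them had at least 1 probe set annotated with that gene symbol alone (67 probe sets in all), out of 18193 such genes in the series. Arl6, Arl13b and Rpgrip1l had no such probe set and were not analysed here, and Cep290 was too dim to be tested, which left 40 genes.

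Uterine RNA came from 3 samples labelled Ihhf/f (Control), with floxed Indian hedgehog (Ihh) alleles, and from 3 samples labelled Ihhd/d, in which the floxed gene was ablated by PRcre, a Cre recombinase made from the progesterone receptor locus. Both groups were sampled on day -1 of artificially induced decidualisation (artificial decidual response), a regimen that makes the endometrial stroma differentiate as it does in pregnancy. The Cre acts in cells that make the progesterone receptor, and the labels name no Cre for the control. They give neither an age nor whether samples were separate mice, so p-values reflect only sample-to-sample spread, part of which could be technical. Both groups also carry a source label naming a different model, SmoM2, and were grouped here by the Ihh genotypes in titles, genotype fields and design text.

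Each sample was hybridised to 1 Affymetrix array, and values below are deposited probe set intensities on a linear scale, with no stated background. Median intensities of the arrays lay between 121.4 and 142.5, and the number of arrays limits the precision. Markers of the expected tissue were bright on all arrays, with a mean log2 intensity of 12.2 to 12.4 for 8 smooth muscle genes, 11.1 to 11.4 for 13 stromal genes and 9.45 to 10.0 for 12 epithelial genes. Transcripts of other tissues differed widely between arrays: the mean log2 intensity of 12 exocrine pancreas genes ran from 6.63 to 12.6 (highest in Ihh-ablated replicate 2), that of 12 skeletal muscle genes from 7.04 to 9.85 (highest in control replicate 3), and that of 11 adipocyte genes from 7.89 to 10.2. Several of these levels moved with genotype. Stromal genes were at 11.3 to 11.4 in control and 11.1 in each ablated array, and skeletal muscle genes at 7.50 to 9.85 and 7.04 to 7.16, both without overlap. The stromal shift was uneven: over the 13 genes the median log2 difference was -0.10 and the lowest -1.44, with 10 negative and 3 positive. Centring each array on its own median adds 0.09 to such differences. Adipocyte genes were at 7.89 to 9.43 in control and 9.19 to 10.2 in ablated arrays, and epithelial genes at 9.45 to 9.91 and 9.90 to 10.0, both with overlap. Their part in the values of the cilium genes was not tested. The Ihh probe set itself read 163.9, 162.3 and 140.2 in control and 121.4, 93.3 and 135.4 in ablated samples, a log2 difference of -0.43 that did not pass the test (limma adjusted p = 0.164). Which Ihh exons were floxed is not given in the sources used here, nor whether this probe set lies in them.

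The primary cilium is a single, non-motile projection that most stromal and epithelial cells raise from the mother centriole when they are not dividing. Vertebrate cells receive Hedgehog ligands there: without ligand the receptor Patched keeps Smoothened out of the cilium, and with ligand Smoothened enters it and Gli transcription factors are activated at its tip. Loss of IFT, of the ciliary motors or of transition zone proteins disturbs this signal, so the comparison asks whether the transcripts of the receiving organelle differ when its ligand is removed from the uterus.

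The transcripts of the cilium differed little between Ihh-ablated and control uteri. Of 40 tested cilium genes, 0 rose and 0 fell at an adjusted p under 0.05 (limma, adjusted over all 33777 probe sets tested). Of all 15530 genes tested, 2.81% passed, 1.28% higher and 1.53% lower. At an unadjusted p under 0.05 there was 1 gene, Ift140, which is 2.5% of the cilium genes, against 24.2% of all genes. Control and Ihh-ablated arrays did not overlap for 4 of 40 genes (10%), all lower in Ihh-ablated samples, whereas they did not overlap for 32.3% of all genes. The log2 differences (Ihh-ablated minus control) ran from -0.26 to 0.26 with a median of -0.01, beside a median of -0.04 over all genes, and the median size of a difference without its sign was 0.093 in the list and 0.167 over all genes. Centring each array on its own median adds 0.09 to every log2 difference given here, which moves the median of the cilium genes to 0.08 and turns the sign of differences between -0.09 and 0.

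These arrays limit how large an undetected change can be. The 95% interval of the log2 difference lay within a 1.5-fold change in either direction for 38 of 40 cilium genes (95%), against 70.3% of all genes, and within a 2-fold change for all 40. Both exceptions at 1.5-fold were on the high side, Bbs1 (interval -0.29 to 0.74) and Ofd1 (-0.12 to 0.63). The lowest bound was that of Ift27 at -0.55, a fall of 1.47-fold. These intervals are those of each gene's brightest probe set. On dimmer probe sets they reached down to -0.84 (Kifap3) and -0.73 (Tulp3), and up to 0.61 (Kif3b) and 0.60 (Wdr35). These bounds lie beyond 1.5-fold. Over the same arrays the Hedgehog receptor and target gene Ptch1 read 1612, 1146 and 1147 in control and 382.4, 400.8 and 449.3 in ablated samples, a log2 difference of -1.65 (interval -1.96 to -1.34, limma adjusted p = 0.00146). Gli1, the target that reports the pathway, differed by -2.53 (adjusted p = 0.000492). Hhip, the third target tested, which encodes a ligand-binding inhibitor of the pathway, read 130.2, 124.6 and 94.5 in control and 107.7, 99.9 and 95.9 in ablated samples and did not pass (-0.19, adjusted p = 0.447). By brightest probe sets, each of the 40 cilium intervals lay above that of Ptch1 and overlapped that of Hhip (-0.53 to 0.15). With the mean of a gene's probe sets, the fall of Ptch1 was smaller, at -0.89 (limma adjusted p = 0.00493).

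**Figure D1:**
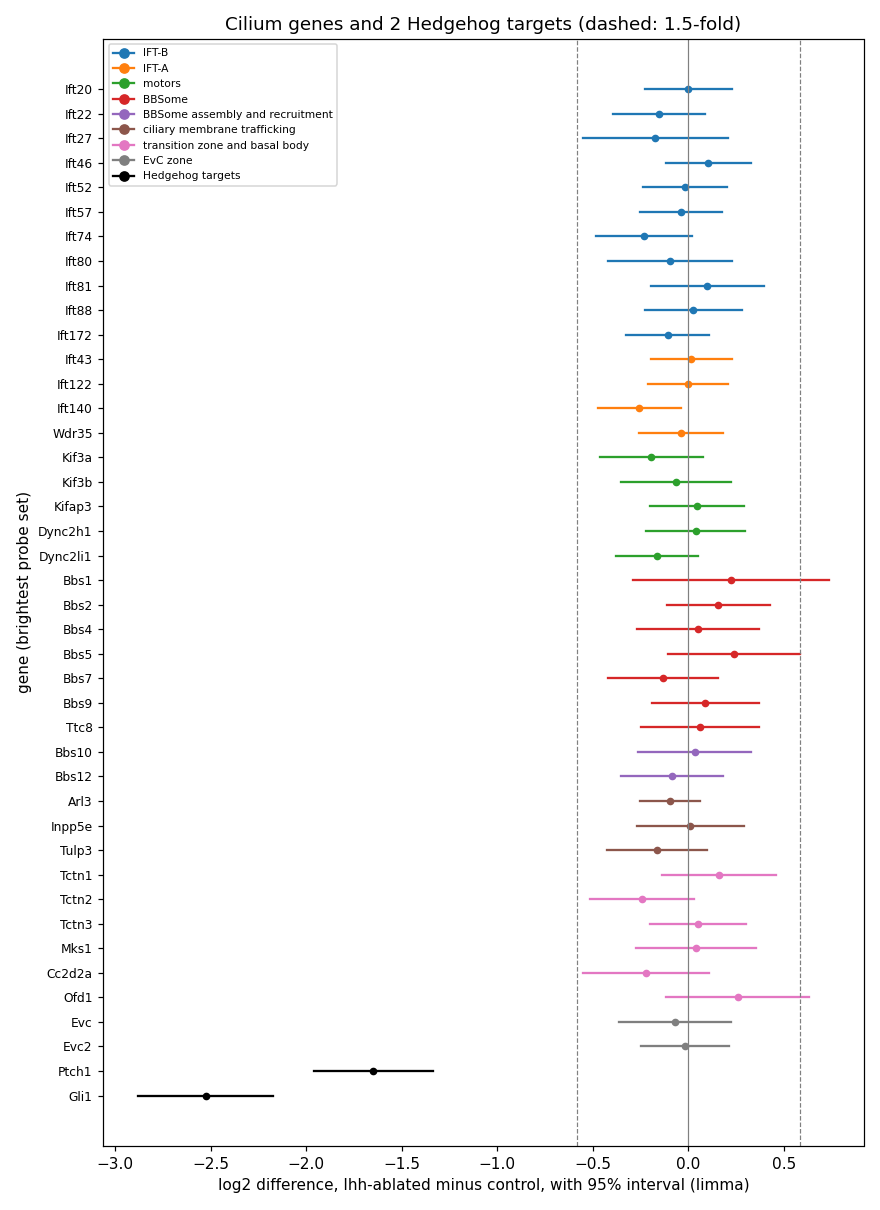
Log2 difference between Ihh-ablated and control arrays (horizontal axis, 3 arrays each) for the 40 tested cilium genes, coloured by role, and for Ptch1 and Gli1 in black; points are limma estimates, lines are 95% intervals and dashed lines mark 1.5-fold. All cilium estimates lie between -0.26 and 0.26, with only the upper ends of Bbs1 and Ofd1 beyond a dashed line, while Ptch1 and Gli1 lie at -1.65 and -2.53.

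**Figure D2:**
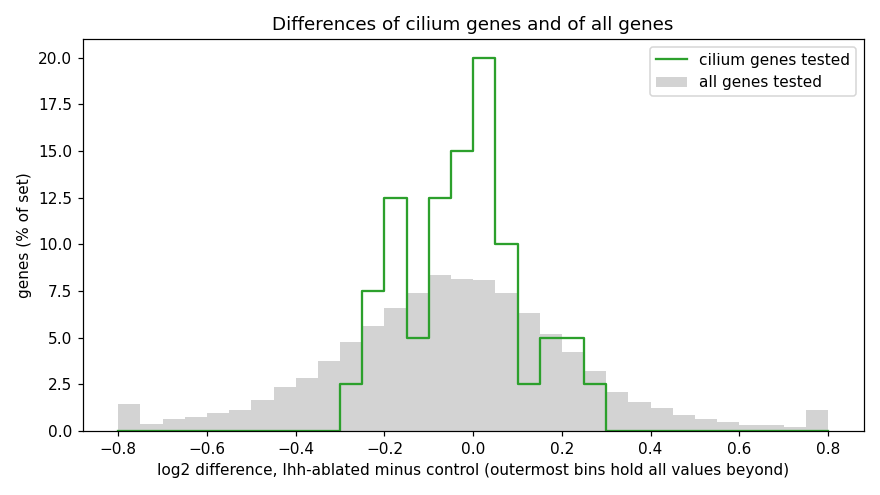
Share of genes (vertical axis, % of the set) by log2 difference between Ihh-ablated and control arrays, for the 40 tested cilium genes (green line) and all 15530 tested genes (grey bars). The cilium genes stay between -0.26 and 0.26, and the grey bars reach the outermost bins on both sides.

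Some of the members, and of other cilium genes, have a common sequence near their start sites, which the choice of members did not use. RFX transcription factors activate many cilium genes through a motif called the X-box, an inverted pair of half-sites. The half-site GTTGCC was present, on either strand, in 17 of 42 promoter windows of the members (40.5%), in 30.4% of 46 windows of other primary cilium genes, in 12.5% of all 32851 windows and in 12.8% of the windows of genes with a probe set of their own. The windows run from 250 bases before to 50 after a start site (RefSeq, GRCm38.p6); 40 of the 44 genes matched, some with more than 1 start site, and Ift80, Ift81, Ift122 and Dync2li1 did not. A pair of half-sites in inverted order, as GTTNCCNGGNAAC or GTTNCCNNGGNAAC (each the same on both strands, and able to contain the half-site), were present in 5 of 42 windows (11.9%), in 6.52% of those of other primary cilium genes and in 0.718% of all. Median GC content was 60% in members' windows and 52.7% in all, or 58.3% for genes on the array. The GLI core GACCACCCA, searched on both strands, was present in 0 of 42 windows and in 0.253% of all. At so low a share, 0 of 42 would be usual for any genes, so this count cannot set the members apart. These motifs were chosen from textbook knowledge after the differences above were known, and a match is not a shown binding site.

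The stretches with a paired match before the start site are printed here because they come from genes of different complexes. These are the BBSome (Bbs7), an IFT train (Ift57) and the transition zone (Mks1, Tctn3). The stretch of Ift140, the gene of lowest p, has a single half-site on the opposite strand. Capitals mark the match, and each runs 5′ to 3′ on the strand of its gene.
Bbs7 (chr3:36613473-36613534, minus strand): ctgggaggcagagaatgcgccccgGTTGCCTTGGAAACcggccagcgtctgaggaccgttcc
Ift57 (chr16:49699210-49699270, plus strand): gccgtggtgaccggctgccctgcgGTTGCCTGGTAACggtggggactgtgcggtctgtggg
Mks1 (chr11:87853167-87853214, plus strand): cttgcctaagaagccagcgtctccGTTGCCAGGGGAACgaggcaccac
Tctn3 (chr19:40612335-40612395, minus strand): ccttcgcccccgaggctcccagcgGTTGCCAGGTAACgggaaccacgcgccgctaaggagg
Ift140 (chr17:25015953-25016006, plus strand): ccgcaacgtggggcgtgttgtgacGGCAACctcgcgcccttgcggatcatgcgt
The fifth paired match, in Tctn1, lay after the start site and is not shown. Among tested members with a promoter window, the 16 with a half-site had a median log2 difference of -0.04 (-0.26 to 0.24) and the 20 without one had 0.0047 (-0.23 to 0.26), with 0 calls in either set.

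Among 7 cilium transcription factors (6 RFX genes and Foxj1), 0 passed the test, with 1 at an unadjusted p under 0.05 (14.3%). The median log2 difference was -0.06, the median size without sign was 0.168, close to the 0.167 of all genes, and values ran from -0.36 (Rfx4) to 0.33 (Rfx3, adjusted p = 0.231). Foxj1, the master factor of motile cilia, read 87.4, 92.3 and 74.9 in control and 70.9, 80.3 and 74.0 in ablated samples (-0.17, limma adjusted p = 0.429).

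The IFT-B complex, which carries cargo out toward the tip, was represented by 11 tested genes, and 0 of 11 passed (median log2 difference -0.04, range -0.23 to 0.10). Ift88, whose loss abolishes cilia and Hedgehog reception in mice, read 199.0, 176.0 and 182.7 in control and 180.1, 187.7 and 200.01 in ablated samples. The groups overlapped, and the log2 difference was 0.03 (interval -0.23 to 0.28, limma adjusted p = 0.897). Ift172, a peripheral subunit also required for Hedgehog signalling, read 385.0, 434.8 and 404.4 in control and 360.3, 396.9 and 377.8 in ablated samples (-0.11, adjusted p = 0.504). Ift20, which also works at the Golgi, differed by -0.00080 (interval -0.23 to 0.23).

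Ift74, which binds tubulin together with Ift81, had the lowest p of this complex. It read 425.5, 336.7 and 379.6 in control and 309.3, 336.8 and 322.1 in ablated samples, where control replicate 2 lay just below Ihh-ablated replicate 2. The log2 difference was -0.23 (SE 0.11, limma adjusted p = 0.2501). Its partner Ift81 went the other way by 0.10 (adjusted p = 0.652), with control replicate 2 the lowest array at 309.3. Ift46, a core subunit, read 559.8, 610.2 and 659.8 in control and 653.0, 608.3 and 705.3 in ablated samples, and the groups overlapped (0.10, adjusted p = 0.523). Ift27, a small GTPase that links the trains to the BBSome, varied most within groups, at 716.5, 676.9 and 490.6 in control and 598.4, 446.4 and 621.9 in ablated samples. Control replicate 3 and Ihh-ablated replicate 2, the arrays with muscle and pancreas transcripts, were its lowest, and the part of those tissues in this was not tested.

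The IFT-A complex, which brings cargo back and admits membrane proteins to the cilium, held the gene with the lowest p of the list. Ift140, a core subunit, read 375.4, 369.9 and 394.9 in control and 316.0, 335.1 and 304.0 in ablated samples. Each control array lay above each Ihh-ablated array. The fall was 1.19-fold (380.1 ± 13.1 against 318.4 ± 15.7, mean ± SD, n = 3 each), or -0.26 on the log2 scale (interval -0.47 to -0.04), and it did not pass (limma adjusted p = 0.165). The other 3 genes of the complex lay close to 0: Ift43 at 0.01, Ift122 at -0.0012 and Wdr35, the subunit also called Ift121, at -0.04. Ift43 read 594.1, 512.5 and 523.5 in control and 573.1, 530.4 and 541.0 in ablated samples.

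Outward transport is driven by a heterotrimeric kinesin made of the motor subunits Kif3a and Kif3b and the adaptor Kifap3, and return transport by a dynein with the heavy chain Dync2h1 and the light intermediate chain Dync2li1. By their brightest probe sets, 0 of these 5 genes passed (median log2 difference -0.06). Dync2li1 had the lowest p, reading 497.6, 490.2 and 427.9 in control and 425.3, 416.5 and 418.2 in ablated samples. The groups did not overlap, though control replicate 3 lay only just above Ihh-ablated replicate 1 (-0.16, SE 0.096, adjusted p = 0.322). Dync2h1 read 243.2, 197.8 and 233.0 in control and 230.9, 228.4 and 229.8 in ablated samples (0.04, adjusted p = 0.855).

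Probe sets of the kinesin genes gave different answers for the same gene. Kif3a, without which cilia are not built, read 281.6, 230.4 and 244.5 in control and 203.6, 223.8 and 232.3 in ablated samples on its brightest probe set (-0.19, adjusted p = 0.343), and its other 3 differed by -0.06 to -0.25. All 4 were lower in Ihh-ablated samples, 3 of them also with median-centred arrays, and groups did not overlap on 1 of them (1436560_at, unadjusted p = 0.0391, limma adjusted p = 0.198). Kif3b differed by -0.06 on its brightest probe set (adjusted p = 0.769), but its other 3 were higher in Ihh-ablated samples with no overlap. The largest of these, 1450074_at, read 103.9, 98.5 and 105.3 in control and 121.8, 129.4 and 139.2 in ablated samples (log2 0.34, adjusted p = 0.145).

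Kifap3 showed the widest disagreement. Its brightest probe set, 1451783_a_at, read 496.9, 402.0 and 482.6 in control and 455.3, 462.9 and 502.0 in ablated samples, a log2 difference of 0.04 (adjusted p = 0.813). Its other probe set, 1417181_a_at, read 472.8, 551.1 and 349.2 in control and 350.6, 295.2 and 326.9 in ablated samples, a difference of -0.48 (SE 0.16, adjusted p = 0.142). On the latter, control replicates 1 and 2 stood above all Ihh-ablated arrays and control replicate 3 lay among them. Without control replicate 3 the difference was -0.66 and passed the test (adjusted p = 0.0145), as it did at -0.59 without both control replicate 3 and Ihh-ablated replicate 2 (adjusted p = 0.0385). The first of these fits called 12.2% of all genes and the second 7.37%, against 2.81% with all arrays, and control replicate 3 is the array that lay among the ablated ones on this probe set. Where these probe sets lie on the transcript is not given in the sources used here.

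**Figure D3:**
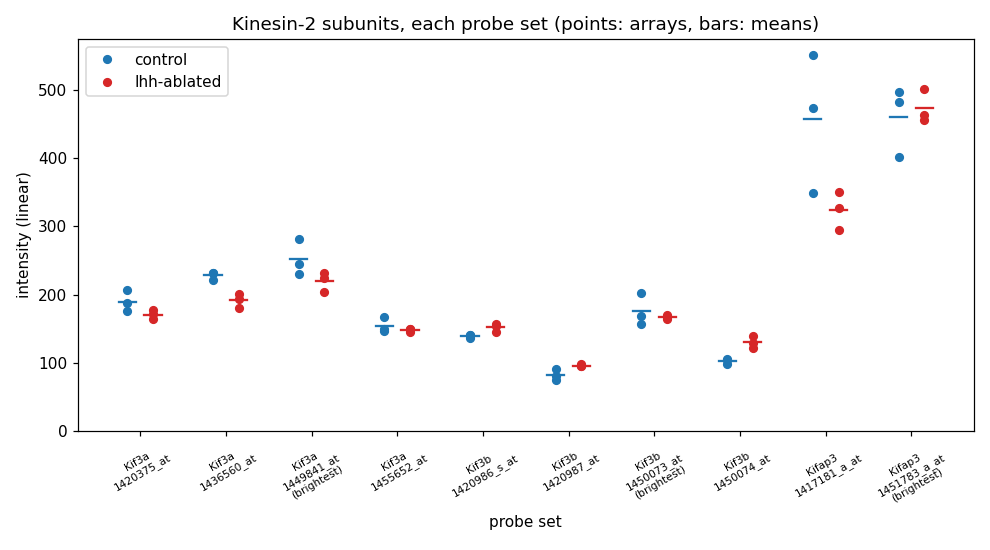
Linear intensity (vertical axis) of every probe set of Kif3a, Kif3b and Kifap3 in control (blue) and Ihh-ablated (red) arrays, with 3 points per group and a bar at each mean. Kif3a probe sets are lower, 3 of 4 Kif3b probe sets higher, and on the Kifap3 probe set 1417181_a_at 2 control arrays stand above the other 4 arrays.

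Over all 60 tested probe sets of the members, 0 were called at an adjusted p under 0.05, against 2.14% of all probe sets. At an unadjusted p under 0.05 there were 4, against 22.9% of all probe sets: those of Ift140, Kif3a, Kif3b and Kifap3. Of 13 members with several tested probe sets, 7 had the same sign on all of them and 6 had mixed signs, and the largest range within a gene was 0.52 on the log2 scale, that of Kifap3.

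The BBSome is a coat that moves membrane proteins, such as the Hedgehog regulator Gpr161, out of the cilium, and mutations in its genes cause Bardet-Biedl syndrome. Of its 7 tested subunits 0 passed, 6 had a positive log2 difference and the median was 0.09. Bbs5, a subunit that binds phospholipids, had the lowest p of the complex and read 132.3, 92.9 and 126.9 in control and 132.3, 135.0 and 143.5 in ablated samples. Only control replicate 2 stood apart, and the difference was 0.24 (SE 0.15, limma adjusted p = 0.363). Bbs1, which binds the GTPase that recruits the coat, followed the same pattern with 104.0, 64.1 and 124.5 in control and 96.9, 111.9 and 121.9 in ablated samples (0.22, adjusted p = 0.557). Bbs2, a core subunit, read 200.9, 193.9 and 236.5 in control and 221.2, 233.3 and 247.6 in ablated samples, with overlap (0.16, adjusted p = 0.433). Bbs4, Bbs9 and Ttc8 differed by 0.05, 0.09 and 0.06, and Bbs7 by -0.13. The chaperonin-like genes Bbs10 and Bbs12, which help the complex assemble, differed by 0.03 and -0.09. Bbs12 read 95.5, 92.8 and 102.8 in control and 86.9, 97.7 and 89.7 in ablated samples, and Bbs10 93.6, 96.3 and 116.5 against 98.8, 105.8 and 107.4.

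Of the tested genes for traffic to the ciliary membrane and for its lipid make-up, 0 of 3 passed. Arl3, a GTPase that releases lipidated cargo inside the cilium, read 1138, 1086 and 1157 in control and 1063, 1075 and 1023 in ablated samples. The groups did not overlap, but the difference was small (log2 -0.10, SE 0.069, adjusted p = 0.412). Tulp3, an adaptor that brings Gpr161 into the cilium, read 332.5, 289.6 and 268.0 in control and 273.5, 246.4 and 272.1 in ablated samples, with overlap (-0.16, adjusted p = 0.405). All 3 tested Tulp3 probe sets were lower in Ihh-ablated samples (-0.16 to -0.32), and 0 passed. Inpp5e, the phosphatase that sets the lipid make-up of the ciliary membrane, differed by 0.01 on its brightest probe set (adjusted p = 0.965) and by 0.21 on the other (adjusted p = 0.356).

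The transition zone is the gate at the base of the cilium, and 0 of the 6 tested genes of it and of the basal body passed (median 0.05). The 3 tectonic genes went different ways. Tctn2 read 165.4, 199.0 and 173.9 in control and 158.2, 150.0 and 145.2 in ablated samples, without overlap, and differed by -0.24 (SE 0.12, limma adjusted p = 0.256). Tctn1, first described as a regulator of Hedgehog signalling, read 137.2, 134.3 and 170.4 in control and 153.5, 168.0 and 170.2 in ablated samples, and differed by 0.16 (adjusted p = 0.468), and Tctn3 differed by 0.05. Cc2d2a, a scaffold of the gate, read 329.8, 245.1 and 305.9 in control and 214.8, 264.3 and 274.3 in ablated samples, with overlap (-0.22, adjusted p = 0.374). Mks1, a Meckel syndrome protein, differed by 0.04, with control replicates 1 and 2 as its lowest and highest arrays at 159.8 and 224.9. Ofd1, which caps the centriole that bears the cilium, read 140.3, 96.7 and 138.2 in control and 161.6, 133.0 and 148.9 in ablated samples. Control replicate 2 again stood apart, and the difference was 0.26, the highest of the list (SE 0.17, adjusted p = 0.367). Cep290, a large protein of the gate, was below the intensity filter at 36.2, 17.8 and 27.4 in control and 44.4, 29.0 and 47.7 in ablated samples, and was not tested.

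Evc and Evc2, the Ellis-van Creveld proteins that bind Smoothened just above the transition zone, gave 0 calls. Evc read 287.6, 245.3 and 325.0 in control and 247.5, 276.9 and 289.5 in ablated samples (-0.07, limma adjusted p = 0.758). Evc2 read 511.5, 439.9 and 487.8 in control and 442.2, 514.7 and 465.0 in ablated samples (-0.02, adjusted p = 0.926). In both genes the groups overlapped. The other tested Evc probe set read 178.8, 201.0 and 157.5 in control and 147.2, 135.4 and 162.9 in ablated samples. It differed by -0.27, also with overlap (limma adjusted p = 0.264).

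Across arrays, the cilium genes moved more with 1 control sample than with genotype. The mean log2 intensity of the 40 genes lay between 7.94 (control replicate 2) and 8.06 (control replicate 3) on all 6 arrays, with the Ihh-ablated arrays at 7.96, 7.99 and 8.03 in between. Control replicate 2 was the lowest array for 17 of 40 cilium genes (42.5%), against 24.4% of all genes. It was the highest array for 17.5% of cilium genes, against 40.3% of all genes. The lower quartile of all intensities was 79.8 on this array and 66.6 to 72.1 on the others, and the part of that in the pattern was not tested. Without control replicate 2, 0 cilium genes were called, and 5 had an unadjusted p under 0.05, all lower in Ihh-ablated samples: Ift74 (-0.32), Ift80 (-0.24), Ift140 (-0.28), Kif3a (-0.26) and Cc2d2a (-0.35), with limma adjusted p values from 0.168 to 0.275. The highest differences shrank in the same fit, Ofd1 from 0.26 to 0.08, Bbs5 from 0.24 to 0.08 and Bbs1 from 0.22 to -0.05. In that fit 18.5% of all genes had an unadjusted p under 0.05, and the median difference was -0.05 over the cilium genes and -0.01 over all genes.

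**Figure D4:**
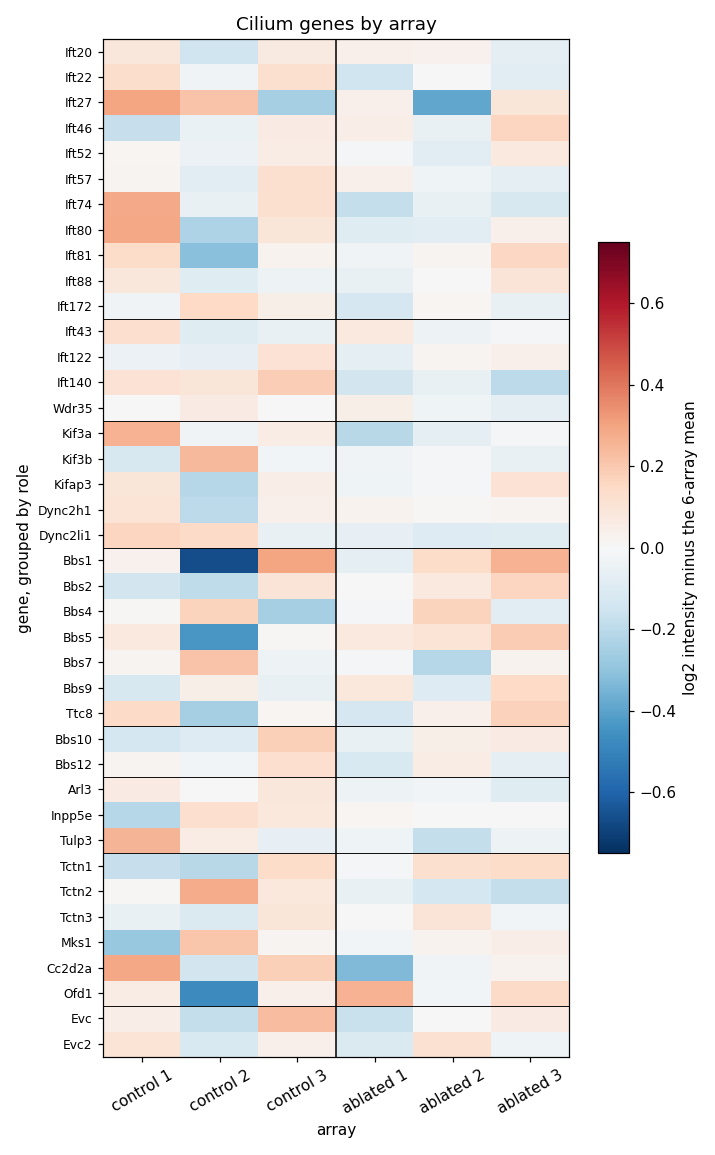
Log2 intensity minus the 6-array mean (colour, red high and blue low) for each tested cilium gene (rows, grouped by role) in each array (columns, control left of the line). The deepest blue cells lie in the control 2 column, in Bbs1, Bbs5 and Ofd1, and few rows separate the groups.

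Because each sample is whole tissue, fewer cells that bear cilia and less RNA per cell cannot be told apart. Other lists of cilium biology were read in the same way, by their counts. Of 35 further tested primary cilium genes (remaining IFT and dynein subunits, transition zone and basal body genes), 0 passed, and 24 had a negative difference (median -0.07, and 0.02 with median-centred arrays). Their mean log2 intensity was 8.07 to 8.15 in control and 8.03 to 8.05 in ablated arrays. The 21 transition zone and basal body genes among them had a median of -0.10 and the 14 IFT and dynein genes 0.0013. The closest to the threshold, named after their values were seen, were B9d1, a transition zone subunit, at 370.9, 347.0 and 350.5 in control and 276.4, 269.5 and 262.6 in ablated samples (-0.40, adjusted p = 0.0676), and Cep89, a distal appendage protein (-0.43, adjusted p = 0.0736). With the mean of a gene's probe sets, Cep89 differed by -0.20 (limma adjusted p = 0.243). B9d1 stayed at -0.40 and was called (0.0310), in a fit that called 2.54% of all genes. Without control replicate 3 both were called lower (-0.41, adjusted p = 0.0467, and -0.48, adjusted p = 0.0351), together with Tmem107 (-0.41) and Rab11fip3 (-0.65). These 4 of 35 stand beside 12.2% of all genes called in that fit.

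The Hedgehog components that work in the cilium gave 0 calls among 13 genes, with 9 negative differences. Their median was -0.19 (-0.10 with median-centred arrays). Their mean log2 intensity was 8.55 to 8.62 in control and 8.36 to 8.44 in ablated arrays. Smo, the signal transducer Smoothened, read 787.0, 791.3 and 828.4 in control and 770.2, 697.6 and 714.4 in ablated samples, with no overlap and a difference of -0.14 (adjusted p = 0.306). Smo differed by -0.05 with the mean of its probe sets (limma adjusted p = 0.665). With median-centred arrays it also differed by -0.05 (limma adjusted p = 0.787). Kif7, the kinesin that organises the ciliary tip, differed by -0.28 (adjusted p = 0.215), Gpr161 by -0.26 (0.273), Sufu, the Gli inhibitor, by -0.18 (0.414), Gli3 by -0.19 (0.241) and Gli2 by 0.06 (0.679). Without control replicate 3, Iqce and Arrb2 were called lower, 2 of 13 genes, where 12.2% of all genes were called.

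Genes that take the cilium apart overlap with the mitotic machinery, and 3 of 11 fell (1.53% of all genes were called lower): the kinases Aurka, Plk1 and Nek2. Aurka, which triggers ciliary disassembly and also builds the spindle, read 184.8, 279.2 and 176.3 in control and 82.0, 97.7 and 99.7 in ablated samples (2.25-fold lower, log2 -1.17, SE 0.19, limma adjusted p = 0.0162). Nek2 fell 2.16-fold (-1.11, adjusted p = 0.00454) and Plk1 1.96-fold (-0.97, adjusted p = 0.0266). Of 19 mitotic genes, 17 fell in the same arrays, with a median of -1.19. Over the 11 disassembly genes, 10 differences were negative, with a median of -0.22 (-0.13 with median-centred arrays). At an unadjusted p under 0.05 there were 5 of 11, against 24.2% of all genes. The groups did not overlap for 6 of 11, all lower in Ihh-ablated samples, where 19% of all genes showed that. No disassembly gene, called or not, is on the mitotic list used here. Hdac6 and Kif2a differed by -0.11 and 0.02 (limma adjusted p = 0.526 and 0.936). Cep97, which with Ccp110 caps the centriole against cilium growth, differed by -0.59 (adjusted p = 0.0702) and Ccp110 by -0.30 (0.185). These values are from brightest probe sets. With the mean of a gene's probe sets, Cep97 differed by -0.20 (limma adjusted p = 0.233) and Aurka by -0.69 (0.0444). The number of disassembly genes that fell was 1 (Nek2) without control replicate 1 or either of Ihh-ablated replicates 1 and 3. It was 4 when control replicate 3 was left out, with Cep97 added. In a fit that takes the mean of the adipocyte markers as a covariate it was 0, and the number of mitotic genes was 3, while the differences stayed of like size (Aurka -1.27, Nek2 -1.06, Plk1 -0.86, and a mitotic median of -1.11).

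Markers of multiciliated cells, whose motile cilia share the IFT machinery and which line the neighbouring oviduct, were tested for 20 genes, and 19 had a negative difference with a median of -0.26. By the test 1 fell, Tppp3, a tubulin-binding protein (-0.44, limma adjusted p = 0.0468), and that call was lost without any 1 array other than control replicate 3 (adjusted p 0.0906 to 0.172). It was also lost with median-centred arrays (adjusted p = 0.151), with dim probe sets kept in (0.0692), without the intensity trend (0.103) and with the adipocyte covariate (0.471). Without control replicate 3, where 12.2% of all genes were called, 4 markers fell. The groups did not overlap for 9 of 20 genes, all lower in Ihh-ablated samples, where 19% of all genes showed that. Rsph1, a radial spoke protein, read 227.1, 205.1 and 168.2 in control and 135.8, 137.2 and 122.0 in ablated samples (-0.60, adjusted p = 0.0647). Tekt2, a tektin of the axoneme, differed by -0.47 (adjusted p = 0.0851). The mean log2 intensity of the 20 markers was 7.06 to 7.35 in control and 6.85 to 6.96 in Ihh-ablated arrays, and their median was -0.17 with each array centred on its median. The IFT genes, which both kinds of cilia use, had medians of -0.04 (IFT-B) and -0.02 (IFT-A) in the same arrays. The part of multiciliated cells in the values of the cilium genes was not tested.

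**Figure D5:**
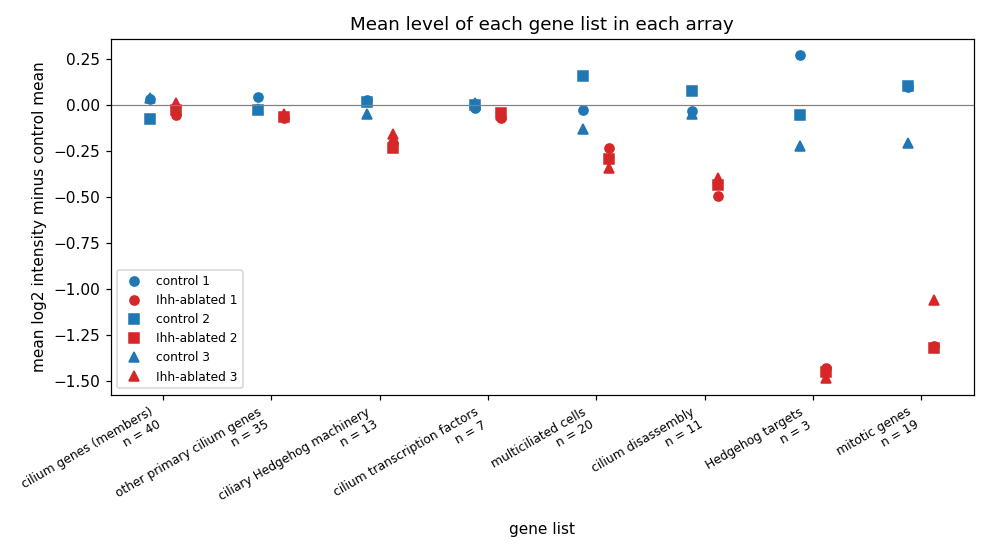
Mean log2 intensity of each gene list in each array, minus the control mean (vertical axis), for control (blue) and Ihh-ablated (red) samples, with the marker shape giving the replicate and n the number of genes. The groups overlap for the cilium genes and do not in the other 7 lists, by the most for Hedgehog targets and mitotic genes. Arrays are not centred on their medians here, which can change whether groups overlap. With median-centred arrays, median log2 differences were 0.08 for the cilium genes, 0.02 for other primary cilium genes and 0.03 for transcription factors. They were -0.10 for ciliary Hedgehog components, -0.17 for multiciliated cells, -0.13 for cilium disassembly, -1.56 for Hedgehog targets and -1.10 for mitotic genes.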

How the data were processed

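The authors deposited 1 intensity per probe set and array on a linear scale, per the labels from biotinylated cRNA of total uterine RNA; how probes were summarised and normalized is not given in the sources used here. The array's 64 control probe sets were removed from 45101. The platform annotation gave 1 symbol for 34945. Intensities under 16 were set to 16 before log2. A filter dropped the dimmest 25% (by mean log2), and 33777 probe sets were tested. The test was limma 3.58.1 under R 4.3.3, using lmFit and eBayes(trend = TRUE), on 4 residual plus 5.25 prior degrees of freedom, with Benjamini-Hochberg adjustment over all tested probe sets and moderated 95% intervals, which are not adjusted. A gene was read from its brightest probe set with 1 symbol. Means and SDs are of linear intensities; differences are Ihh-ablated minus control.

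Members, lists and tests were chosen with earlier results of these data known. Array values were given for members of lowest p or highest intensity in their role, the 5 of lowest p in the list, and some others of well-known function, chosen after seeing the data. Same-numbered samples deviated from their group means with correlations of -0.15, -0.04 and 0.25, so the replicate numbers were not taken to pair samples. Alternatives changed the normalization, floor, filter, variance model, array weights, replicate block, probe set rule, threshold, covariate and arrays. The fit was tested on simulated data. Plots used matplotlib 3.10.9 (Python 3.11.15).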

Additional observations from a re-analysis of the deposited data

How the results depend on the processing

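In all 20 alternatives 0 cilium genes were called in either direction, with adjusted p values of 0.111 or more for every named member. This holds for genes read from their brightest probe set or the mean of their probe sets. The dimmer Kifap3 probe set 1417181_a_at passed without control replicate 3 (limma adjusted p = 0.0145). It also passed without that array and Ihh-ablated replicate 2 together (0.0385). The median over the cilium genes lay between -0.05 and 0.08, the latter with each array centred on its median, where the median of all genes moved from -0.04 to 0.05. Of 793 recomputed member values, 66 changed sign, none of them called in any alternative. With the replicate block 0 cilium genes were called, 922 of all genes were (437 without it) and 2 multiciliated markers were (1 without it); samples share only the number, and control replicate 2 correlated best with Ihh-ablated replicate 1. Calls over all genes numbered 266 with median-centred arrays, 226 without the intensity trend, 782 with array weights, 1022 at a threshold of 0.1, 1144 without control replicate 3 and Ihh-ablated replicate 2 together, 13 with the adipocyte covariate and 100 to 1896 without single arrays. Calls among the 35 other primary cilium genes numbered 2 with array weights and with a threshold of 0.1, 1 with the mean of a gene's probe sets, 1 without that pair of arrays, and 0 to 4 without single arrays. Calls among ciliary Hedgehog components numbered 2 without that pair and 0 to 2 without single arrays. Disassembly calls ran from 1 to 4 and mitotic calls from 11 (without control replicate 1) to 18 without single arrays. With adipocyte markers as a covariate, which takes 1 of 4 residual degrees of freedom, 1 Hedgehog target, 0 disassembly and 3 mitotic genes were called; Ptch1 then differed by -1.49 (adjusted p = 0.0505). The causes were not tested. No background level is given that would set a detection limit for dim probe sets such as that of Cep290.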

Other observations

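Several probe sets of ciliary genes shared 1 array pattern, seen while the values were read and not tested as a group. Arrb2, a beta-arrestin that helps bring Smoothened to the cilium, read 810.1, 938.5 and 483.5 in control and 475.3, 420.4 and 455.7 in ablated samples (log2 -0.67, limma adjusted p = 0.124). Iqce, which anchors the EvC complex, read 432.7, 593.3 and 310.3 in control and 293.0, 239.9 and 260.1 in ablated samples (-0.71, adjusted p = 0.110). Rab11fip3, an effector of ciliary vesicle traffic, read 563.6, 624.7 and 392.6 in control and 376.9, 357.8 and 404.1 in ablated samples (-0.45, adjusted p = 0.158). In each, control replicates 1 and 2 were high and control replicate 3 lay near the Ihh-ablated arrays, as on the Kifap3 probe set 1417181_a_at. Control replicate 3 is also the array with the most skeletal muscle transcripts (mean log2 9.85, against 7.04 to 7.75 in the others). These genes were picked for that pattern, so leaving out control replicate 3 had to enlarge their differences. Without it, in a fit that called 12.2% of all genes, the differences were -0.95, -0.94 and -0.65 (limma adjusted p = 0.00271, 0.00929 and 0.00963). With all arrays and the mean of each gene's probe sets, the differences were smaller: -0.38, -0.39 and -0.29 (limma adjusted p = 0.130, 0.135 and 0.191).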
